A study of Mus musculus with 16 samples.

Results

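The genes described here act in transcytosis across brain endothelium and in the caveolae that carry part of it: Mfsd2a, Plvap, Cav1, Cav2, Cavin1, Cavin2, Cavin3, Ehd2 and Ehd4. They were taken from the deposited count table by symbol, and each of the 9 matched 1 of its 37003 rows. All 9 passed the filter on low counts that left 31085 genes for testing. Sequencing covered RNA of endothelial cells of the brain (bECs) sorted as DAPI-, CD45- and CD31+ from adult mice of both sexes, 72 hours after sham surgery or after closure of the middle cerebral artery for 30 minutes and reperfusion (MCAo). The 16 libraries came from 2 genotypes, YT-iKO and CTRL, each after sham and after MCAo, with 4 libraries per group, and each library was a pool of brain tissue from several mice. Mice of both genotypes carried floxed Yap and Taz alleles and had been given tamoxifen before surgery. YT-iKO mice also carried Pdgfb-iCreER-eGFP, whose Pdgfb promoter puts a tamoxifen-inducible Cre into endothelium, while CTRL mice were littermates without that transgene. CTRL mice thus had no Cre, so an effect of Cre itself and an effect of losing Yap and Taz cannot be told apart. After MCAo, tissue was dissected from the territory of the artery. The study used these libraries to ask how bECs without YAP and TAZ, the pair of coactivators that the Hippo pathway restrains, differ after sham surgery and after stroke.

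Endothelial cells of the brain restrict vesicular transport as part of the blood-brain barrier. Caveolae are small invaginations of the plasma membrane built from caveolins, which sit in the membrane, and cavins, which coat it from the cytosol. The ATPases Ehd2 and Ehd4 belong to a family that binds the neck of caveolae. Mfsd2a carries lysophosphatidylcholine with docosahexaenoic acid into the brain and is known to keep caveolar transcytosis low. Plvap forms the diaphragms of caveolae and fenestrae and is low in vessels with a mature barrier.

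Counts summed to between 11418262 and 23074547 per library. The table held 292 to 1288 counts of Plvap per library in all but 1 of the 16, and 356 to 1159 of Cavin3, the members with the fewest counts. Yap1 was lower in YT-iKO in both surgeries, with log2 fold changes of -1.18 ± 0.22 (SE, edgeR's quasi-likelihood test, adjusted p = 0.0371) after sham and -1.17 ± 0.22 (adjusted p = 0.0478) after MCAo. Wwtr1, the gene of TAZ, was lower by -1.88 ± 0.28 (adjusted p = 0.00381) and -1.88 ± 0.28 (adjusted p = 0.00356) on the same scale. The 8 endothelial markers (Pecam1, Cdh5, Cldn5, Flt1, Kdr, Tie1, Tek and Slco1a4) summed to between 9028 and 19072 CPM per library, where CPM is the usual count scaled to library size, here with TMM factors. Reads that fall evenly on the genome were estimated from 1258 receptor genes of smell and taste and amounted to at most 3.43% of the level of any member in any library.

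TMM scaling factors ran from 0.743 to 1.40, and MCAo libraries 2 and 3 of both genotypes had factors of at least 1.14 while MCAo libraries 1 and 4 were all at or below 0.865. Values are therefore given under 2 scalings. The main one takes the factors from all genes tested, and the other takes them from 9123 genes whose mean CPM was 10 or more, called abundant genes here. The second scaling moved the median log2 fold change of all genes from 0.11 to 0.30 for YT-iKO against CTRL after sham, from 0.09 to 0.21 for that comparison averaged over surgery, and from 0.07 to 0.21 for MCAo against sham in CTRL. The median of the abundant genes moved from -0.13 to 0.01 in the first of these.

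Per kilobase of exon, Cavin1 was the highest member at 182 CPM per kb as a mean over the 16 libraries, ahead of Mfsd2a at 97.0, Cavin2 at 84.4 and Cav1 at 57.1. Ehd2 at 44.6 and Cav2 at 44.3 CPM per kb had SDs of 14.9 and 10.5, which mix the groups. Which of them was higher depended on the group. Cav2 was higher in every YT-iKO sham library and Ehd2 in every CTRL MCAo library, while CTRL sham and YT-iKO MCAo were mixed. Plvap at 31.2, Ehd4 at 22.6 and Cavin3 at 22.5 CPM per kb came last, with SDs of 34.3, 8.83 and 8.08, and did not differ beyond that spread. Plvap stood at 155 CPM per kb in CTRL sham replicate 4, and in YT-iKO MCAo its mean of 20.3 was below those of Cavin3 and Ehd4 at 26.2 and 23.5. The order was not the same in every group: in YT-iKO MCAo the mean of Cav1, 40.8 CPM per kb, was below that of Ehd2, 42.4. In CTRL sham libraries Cavin1 was at 210, Mfsd2a at 132 and Cavin2 at 120 CPM per kb.

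Caveolins share a locus: Cav2 lies at chr6:17281185-17289115 and Cav1 at chr6:17306335-17341452 on the same strand of GRCm38. Cavin1 lies at chr11:100956733-100970887, Cavin2 at chr1:51289126-51302960 and Cavin3 at chr7:105480083-105482300. Ehd2 is at chr7:15946958-15967567, Ehd4 at chr2:120089175-120154606, Mfsd2a at chr4:122946850-122961188 and Plvap at chr8:71497765-71511752. All are protein-coding, and only Cavin3 shares exon bases with another gene, 374 bases with Gm45667 on the opposite strand. Whether the counting used strand is not given in the sources used here, so reads of that stretch could come from either gene.

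YAP and TAZ bind DNA through TEAD factors, so the 250 bases before the annotated starts (RefSeq, GRCm38.p6) were searched for the TEAD core GGAATG on either strand, which reads CATTCC on the other. Windows were held for 7 of the 9 genes. The core stood in 12.64% of the 32851 windows of all genes, and among the members only in Cavin1. Cav1 and Cavin1 each had a second window, from another annotated start: that of Cav1, at chr6:17307390-17307639, held no core, and that of Cavin1 held the same core. The windows of Cav1 and Cav2, whose ratio differed between genotypes, and of Cavin2, which with Cav1 had the lowest adjusted p for genotype, are shown whole, followed by the 30 bases of the Cavin1 window with the core in capitals. They lie at chr6:17306085-17306334 (plus strand), chr6:17280935-17281184 (plus), chr1:51288876-51289125 (plus) and chr11:100970838-100970867 (minus).
Cav1: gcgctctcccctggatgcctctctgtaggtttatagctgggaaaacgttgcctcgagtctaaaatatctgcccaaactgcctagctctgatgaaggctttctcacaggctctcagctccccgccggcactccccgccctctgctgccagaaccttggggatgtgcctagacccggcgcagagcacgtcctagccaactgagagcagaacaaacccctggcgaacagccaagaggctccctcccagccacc
Cav2: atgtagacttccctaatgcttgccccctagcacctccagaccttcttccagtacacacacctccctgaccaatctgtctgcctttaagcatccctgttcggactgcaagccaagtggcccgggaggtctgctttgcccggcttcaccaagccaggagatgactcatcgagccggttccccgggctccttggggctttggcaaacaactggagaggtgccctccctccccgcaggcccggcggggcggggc
Cavin2: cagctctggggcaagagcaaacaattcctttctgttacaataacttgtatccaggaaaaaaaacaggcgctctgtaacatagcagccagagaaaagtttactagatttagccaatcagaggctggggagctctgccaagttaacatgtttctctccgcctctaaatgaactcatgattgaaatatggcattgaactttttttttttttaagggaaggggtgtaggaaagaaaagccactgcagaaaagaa
Cavin1: tcaCATTCCtctgccccagtcccgctgccg
The Cavin2 window was 40.4% G and C, against 59.6% for Cav1 and 62.0% for Cav2. The core in the Cavin1 window began 247 bases before the annotated start that this window ends at. By the gene positions given above, Cavin1 begins at 100970887 on the minus strand. Both Cavin1 windows with their core thus lie inside that gene, and the second Cav1 window lies inside Cav1. A match is a description of these letters, and a window without one says nothing of sites elsewhere.

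YT-iKO bECs had lower mean levels of all 9 genes than CTRL bECs after sham, after MCAo and averaged over surgery, and no member was called in any of these in the main analysis. The averaged log2 fold changes ran from -0.21 for Cavin3 to -1.19 for Plvap with a median of -0.47, where the median of all genes tested was 0.09 and that of the abundant genes, to which all 9 belong, -0.06. Unadjusted p was under 0.05 for 6 of 9 members averaged over surgery, against 3.24% of all genes, for 4 after sham (2.16% of all genes) and for 2 after MCAo (1.49%). At an adjusted p under 0.1 the fit called 0.28% of all genes averaged over surgery, 0.0965% after sham and 0.0708% after MCAo. DESeq2 called Cav1 and Cavin2 in the averaged comparison, Cavin2 after sham and no member after MCAo, where it called 1.33%, 0.42% and 0.461% of all genes. In the same order limma-voom called 5, 1 and 2 members, and 2.4%, 0.46% and 0.827% of all genes. Here and below limma-voom was run with weights for sample quality. edgeR with factors from abundant genes called 5 of 9 members in the averaged comparison, all lower (background 1.79% of all genes), 1 after sham (0.392%) and 2 after MCAo (0.582%).

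**Figure D1:**
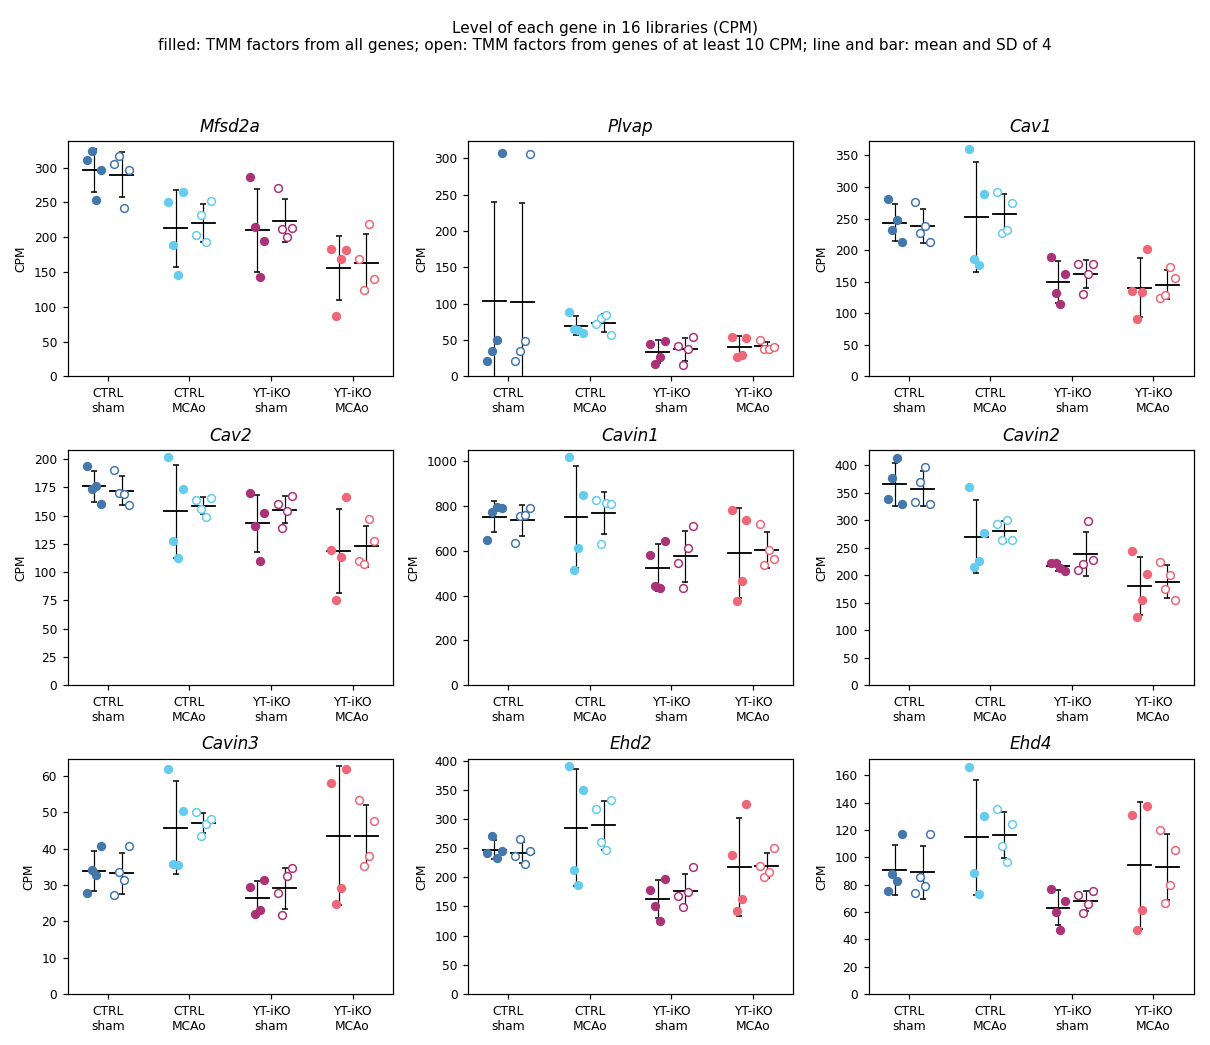
Level of each of the 9 genes in every library, in CPM on linear axes that start at 0, for each genotype after each surgery. Filled points use TMM factors from all genes and open points factors from abundant genes, with the mean as a line and the SD of 4 libraries as a bar; the open points of CTRL MCAo lie closer together than its filled ones, and 1 CTRL sham library stands far above the rest for Plvap at 307 CPM, so that the SD bar there runs below the axis.

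Cav1, the principal structural protein of endothelial caveolae, was at 281, 232, 248 and 213 CPM in the CTRL sham libraries and at 189, 132, 115 and 162 CPM in YT-iKO sham. It was at 360, 186, 176 and 288 CPM in CTRL MCAo and at 135, 90.5, 134 and 203 CPM in YT-iKO MCAo. Every YT-iKO sham library lay below every CTRL sham library, whereas after MCAo the ranges overlapped under the main scaling. The log2 fold change was -0.70 ± 0.27 (SE) after sham (edgeR, adjusted p = 0.99; exact two-sided permutation p = 0.0286, the smallest that 4 against 4 can give). After MCAo it was -0.84 ± 0.27 (edgeR, adjusted p = 1; exact permutation p = 0.0857). Averaged over surgery it was -0.77 ± 0.19, a level of 0.585 times that of CTRL (edgeR, adjusted p = 0.14), and it was called in 5 of 16 fits that left out 1 library, CTRL sham 4, CTRL MCAo 3, YT-iKO sham 1 or YT-iKO MCAo 1 or 4.

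Under the other scaling Cav1 was at 124 to 174 CPM in YT-iKO MCAo and 227 to 292 CPM in CTRL MCAo, with no overlap. It then fell in YT-iKO by 0.69 ± 0.09 (SE) on the log2 scale averaged over surgery (edgeR, adjusted p = 0.00034) and by 0.82 ± 0.13 after MCAo (adjusted p = 0.00427). It was not called after sham, at -0.56 ± 0.13 (edgeR, adjusted p = 0.102). On that scale the averaged call for Cav1 held in each of 16 fits that left out 1 library, with adjusted p between 0.000181 and 0.00137. Relative to the median of all genes, the averaged Cav1 difference was -0.86 under the main scaling and -0.90 under the other, and relative to the median of abundant genes it was -0.72 and -0.70.

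Cav2, which forms oligomers with Cav1 and needs it to reach the surface, differed less. Its levels were 160 to 194 CPM in CTRL sham, 113 to 202 in CTRL MCAo, 110 to 170 in YT-iKO sham and 75.3 to 166 in YT-iKO MCAo. The genotypes thus overlapped after both surgeries under the main scaling. With factors from abundant genes they overlapped after sham only. After MCAo they were then at 107 to 147 CPM in YT-iKO and 149 to 165 CPM in CTRL. The averaged log2 fold change was -0.34 ± 0.17 (edgeR, adjusted p = 1), and -0.26 ± 0.07 with factors from abundant genes (adjusted p = 0.0745). That second call held only without CTRL sham 4, CTRL MCAo 3, YT-iKO sham 1 or 4 or YT-iKO MCAo 3 or 4 among 16 fits that left out 1 library, and its adjusted p reached 0.184.

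The ratio of Cav1 to Cav2 counts within a library does not depend on the scaling. It was 1.45, 1.34, 1.41 and 1.33 in CTRL sham and 1.11, 0.937, 1.05 and 1.06 in YT-iKO sham. It was 1.78, 1.46, 1.56 and 1.67 in CTRL MCAo and 1.13, 1.2, 1.18 and 1.22 in YT-iKO MCAo. The 4 groups did not overlap at all: the ratio was lowest in YT-iKO sham, then in YT-iKO MCAo, CTRL sham and CTRL MCAo. Taking off the estimated even background left the range of each group within 0.01 of these values. Of the 36 ratios between members, 1 separated the genotypes after sham, which was this one, and 4 did so after MCAo. The share of ratios between other genes that did so was not computed. The ratio was singled out after its values were seen, so it stands as a description with no test.

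**Figure D2:**
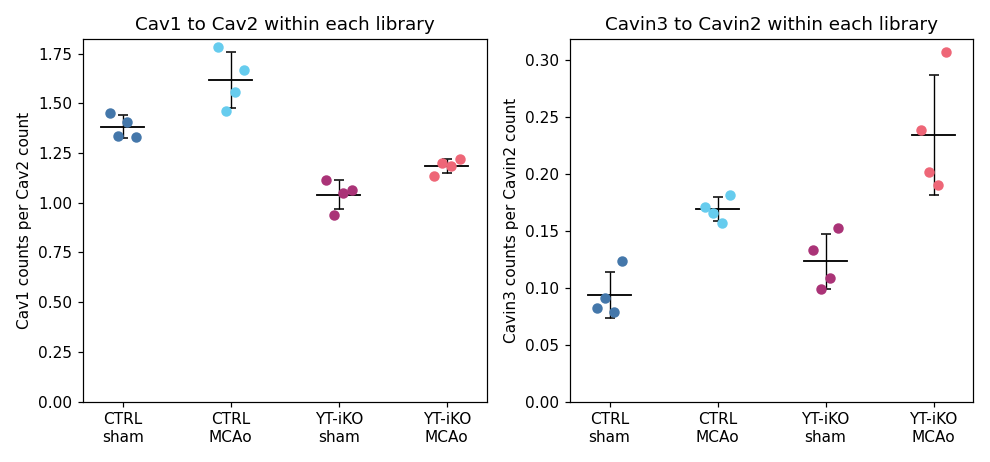
Counts of Cav1 per count of Cav2 (left) and of Cavin3 per count of Cavin2 (right) in each of 16 libraries, with the mean and SD of 4 per group; both axes start at 0. The Cav1 ratio lies between 0.937 and 1.22 in YT-iKO and between 1.33 and 1.78 in CTRL, and the Cavin3 ratio is higher after MCAo than after sham in both genotypes.

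Cavin2, a cavin known to shape endothelial caveolae and the membrane they sit in, was at 339, 378, 414 and 330 CPM in CTRL sham and at 222, 223, 212 and 207 CPM in YT-iKO sham. The groups after sham did not overlap, and the 4 YT-iKO sham libraries had a coefficient of variation of 3.56% under the main scaling, though they ran from 209 to 298 CPM under the other. After MCAo, CTRL libraries were at 361, 215, 226 and 277 CPM and YT-iKO libraries at 243, 123, 154 and 202 CPM, with overlap. The log2 fold change was -0.76 ± 0.23 after sham (edgeR, adjusted p = 0.99; exact permutation p = 0.0286), -0.58 ± 0.23 after MCAo (adjusted p = 1; exact permutation p = 0.114) and -0.67 ± 0.16 averaged (adjusted p = 0.14). The averaged difference of Cavin2 was called in 8 of 16 fits that left out 1 library: CTRL sham 1 or 4, CTRL MCAo 3, YT-iKO sham 1 or 2, or YT-iKO MCAo 1, 2 or 4.

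Scaled by abundant genes, Cavin2 fell in YT-iKO in all 3 of these, by 0.58 ± 0.12 after sham (edgeR, adjusted p = 0.0649), by 0.57 ± 0.12 after MCAo (adjusted p = 0.0472) and by 0.58 ± 0.09 averaged (adjusted p = 0.00114). The averaged call for Cavin2 held in all 16 fits without 1 library, the call after MCAo in 11 and the call after sham in 9. The sham call was lost without any of CTRL sham 1, 2 or 3, YT-iKO sham 1, 2 or 4, or CTRL MCAo 4, with adjusted p up to 0.258. The one after MCAo did not hold without CTRL MCAo 1, 3 or 4 or YT-iKO MCAo 2 or 4, with adjusted p up to 0.153.

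Cavin1, without which caveolae do not form, was the most abundant member at 648 to 795 CPM in CTRL sham and 435 to 645 CPM in YT-iKO sham. These groups did not overlap under the main scaling (exact permutation p = 0.0286), yet the highest YT-iKO library at 645 CPM stood next to the lowest CTRL library at 648 CPM, and they overlapped with factors from abundant genes. After MCAo the ranges were 515 to 1019 CPM in CTRL and 377 to 781 CPM in YT-iKO. The averaged log2 fold change was -0.43 ± 0.19 (edgeR, adjusted p = 1), or -0.35 ± 0.10 (adjusted p = 0.113) on the other scale. Cavin3 was the least abundant of the cavins among the members. It showed the smallest genotype difference of the 9, at -0.21 ± 0.19 averaged (adjusted p = 1), and its genotypes overlapped after both surgeries.

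Ehd2, the ATPase that stabilises caveolae at the surface, was at 241, 271, 233 and 245 CPM in CTRL sham and at 179, 151, 124 and 198 CPM in YT-iKO sham, with no overlap under either scaling. After MCAo it ranged from 187 to 390 CPM in CTRL and from 141 to 326 CPM in YT-iKO. The averaged log2 fold change was -0.50 ± 0.19 (edgeR, adjusted p = 1). Ehd2 fell by 0.42 ± 0.08 with factors from abundant genes (edgeR, adjusted p = 0.012), a call kept in all 16 fits that left out 1 library. Ehd4, a relative of Ehd2, was at -0.40 ± 0.22 (adjusted p = 1) and at -0.35 ± 0.12 (adjusted p = 0.272) on the other scale.

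Counted by separation of libraries, Cav1, Cavin1, Cavin2 and Ehd2 had no overlap between genotypes after sham under the main scaling, where 3.85% of all genes had none. After MCAo only Plvap did, against 0.981% of all genes. Under the other scaling the separated members were Cav1, Cavin2 and Ehd2 after sham (4.49% of all genes) and Plvap, Cav1, Cav2 and Cavin2 after MCAo (3.24%). In each of these cases the YT-iKO libraries were the lower ones.

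Mfsd2a, the lipid transporter that holds transcytosis down, was at 311, 323, 253 and 296 CPM in CTRL sham and at 287, 214, 143 and 195 CPM in YT-iKO sham. It was at 250, 189, 146 and 265 CPM in CTRL MCAo and at 183, 87.2, 169 and 182 CPM in YT-iKO MCAo. CTRL sham had the highest mean and YT-iKO MCAo the lowest, at 296 ± 30.5 and 155 ± 45.8 CPM (SD, n = 4), and neighbouring groups overlapped. Its averaged genotype difference was -0.47 ± 0.19 (edgeR, adjusted p = 1). Scaled by abundant genes it fell in YT-iKO by 0.40 ± 0.11 (adjusted p = 0.0899), and of 16 fits without 1 library only those without CTRL sham 3, CTRL MCAo 3, YT-iKO sham 1 or YT-iKO MCAo 3 kept this call, with adjusted p up to 0.233.

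Plvap, the diaphragm protein, was at 21.6, 35.4, 50.4 and 307 CPM in CTRL sham, at 59.8 to 88.9 CPM in CTRL MCAo, at 16.4 to 48.8 CPM in YT-iKO sham and at 26.6 to 54.1 CPM in YT-iKO MCAo. CTRL sham replicate 4 stood far above the next highest of the 16 libraries, CTRL MCAo replicate 1 at 88.9 CPM, and the other CTRL sham libraries overlapped YT-iKO sham. The log2 fold change after sham was -1.60 ± 0.56 (edgeR, adjusted p = 0.99; exact permutation p = 0.429), and without that library it was -0.06. After MCAo all 4 YT-iKO libraries lay below all 4 CTRL libraries, with a log2 fold change of -0.78 ± 0.55 (edgeR, adjusted p = 1; exact permutation p = 0.0286). Averaged over surgery Plvap was at -1.19 ± 0.39 (adjusted p = 0.749), which became -0.45 without CTRL sham replicate 4. In that library Igfbp5 was at 137 CPM against at most 9.02 CPM in the other 15, Meis2 at 51.7 against 10.8 and Exoc3l2 at 65.5 against 21.8, genes singled out after their values were seen. The part of the library's cell makeup in the Plvap value was not tested; markers of choroid plexus epithelium, a tissue with fenestrated vessels, summed to 33.2 CPM there and to between 18.2 and 32.4 CPM in the other CTRL sham libraries. Red cell markers summed to 26.6 CPM there against 4.9 to 13.99 CPM in the other CTRL sham libraries, and microglia and macrophage markers to 16.1 against 6.45 to 9.02 CPM. Libraries of other groups had higher sums. Red cell markers reached 36.0 and 29.2 CPM in YT-iKO sham replicates 2 and 3. Microglia and macrophage markers reached 21.4 CPM in YT-iKO sham replicate 3 and 20.3 CPM in YT-iKO MCAo replicate 2. Choroid plexus markers reached 116 CPM in YT-iKO MCAo replicate 1.

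**Figure D3:**
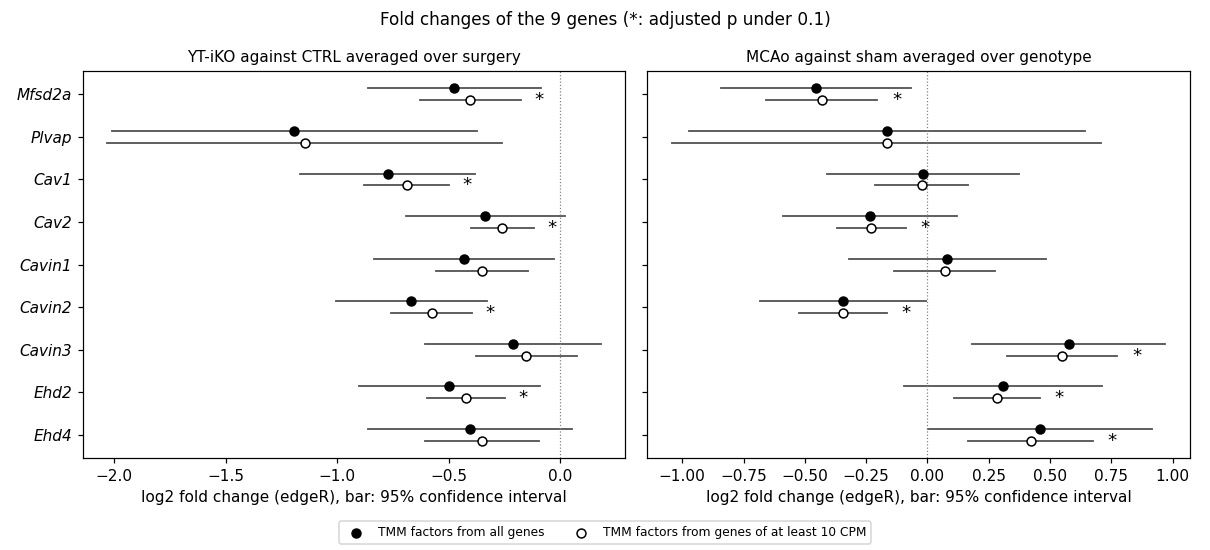
Log2 fold change of each gene from edgeR, with a 95% confidence interval derived from its F statistic. YT-iKO against CTRL averaged over surgery is on the left and MCAo against sham averaged over genotype on the right. Filled points use factors from all genes, open points factors from abundant genes, and an asterisk marks an adjusted p under 0.1. On the left all points lie below 0, and on the right Cavin3, Ehd2 and Ehd4 lie above 0 while Mfsd2a, Cav2 and Cavin2 lie below.

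MCAo was accompanied by differences in both directions among the members. Averaged over genotype, mean levels of Cavin3, Ehd4 and Ehd2 were higher after MCAo by 0.58 ± 0.19, 0.46 ± 0.22 and 0.31 ± 0.19 on the log2 scale, and those of Mfsd2a, Cavin2 and Cav2 lower, at -0.46 ± 0.19, -0.35 ± 0.16 and -0.23 ± 0.17. Cavin1, Cav1 and Plvap were at 0.08, -0.02 and -0.17, and Plvap was at 0.58 without CTRL sham replicate 4. With limma-voom Ehd2, Ehd4 and Cavin1 turned to -0.11, -0.035 and -0.30 and Plvap to 0.078, and leaving out 1 library also turned the signs of Cav1 and Cavin1. No member was called in the main analysis (edgeR, lowest adjusted p = 0.278 for Cavin3), where 1.23% of all genes were, and 4 of 9 had an unadjusted p under 0.05 against 5.82% of all genes. DESeq2 called Cavin3 and 4.73% of all genes, and limma-voom called 5 members lower and none higher, where it called 54.7% of all genes. With factors from abundant genes 6 members were called, 3 in each direction, against 5.13% of all genes.

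On that scale Cavin3 rose by 0.55 ± 0.11 (edgeR, adjusted p = 0.0053), Ehd4 by 0.42 ± 0.12 (adjusted p = 0.0667) and Ehd2 by 0.28 ± 0.08 (adjusted p = 0.0723). Mfsd2a fell by 0.43 ± 0.11 (adjusted p = 0.0287), Cavin2 by 0.34 ± 0.09 (adjusted p = 0.0278) and Cav2 by 0.23 ± 0.07 (adjusted p = 0.0723). The calls for Mfsd2a, Cavin2 and Cavin3 held in all 16 fits without 1 library, whereas those for Ehd4, Ehd2 and Cav2 held in 7, 6 and 4, with adjusted p up to 0.161, 0.179 and 0.177. Ehd4 and Ehd2 both kept their calls without YT-iKO sham 4, CTRL MCAo 2 or 3 or YT-iKO MCAo 2 or 3, Ehd4 also without CTRL sham 4 or YT-iKO sham 1 and Ehd2 without CTRL sham 2. Cav2 kept its call without CTRL sham 4, YT-iKO sham 2 or 3 or YT-iKO MCAo 3. Under the main scaling Cavin3 was called only without YT-iKO MCAo replicate 2 (edgeR, adjusted p = 0.0468).

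Cavin3, a cavin that binds protein kinase C delta, was at 27.8, 34.2, 32.7 and 40.8 CPM in CTRL sham and at 61.9, 35.7, 35.5 and 50.4 CPM in CTRL MCAo. In YT-iKO it was at 29.5, 22.1, 23.1 and 31.5 CPM after sham and at 58.1, 24.9, 29.3 and 62.1 CPM after MCAo. Under the main scaling sham and MCAo overlapped in both genotypes, MCAo libraries 1 and 4 being the high ones. Under the other scaling they did not overlap in either genotype, at 27.2 to 40.7 against 43.6 to 50.3 CPM in CTRL and at 21.8 to 34.6 against 35.3 to 53.5 CPM in YT-iKO. Cavin3 was then called in YT-iKO at 0.59 ± 0.15 (edgeR, adjusted p = 0.0811), and not in CTRL at 0.51 ± 0.15 (adjusted p = 0.156). The YT-iKO call of Cavin3 held in 6 of 16 fits, those without CTRL sham 1 or 4, YT-iKO sham 3 or 4 or YT-iKO MCAo 2 or 3, with adjusted p up to 0.335.

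The ratio of Cavin3 to Cavin2 counts, again free of the scaling, ranged from 0.0791 to 0.124 in CTRL sham and from 0.157 to 0.182 in CTRL MCAo. In YT-iKO it ranged from 0.0991 to 0.152 after sham and from 0.19 to 0.307 after MCAo. Sham and MCAo did not overlap in either genotype. Of the 36 ratios between members, 10 separated MCAo from sham in CTRL and 12 in YT-iKO. Those of Cavin3 to Mfsd2a, to Cav2, to Cavin1 and to Cavin2 were among them in both. How many ratios between other genes separate the surgeries was not computed, so these counts are a description only. Cav1 to Cav2 was also higher after MCAo in both genotypes, as its values above show.

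Within each genotype no member was called after MCAo in the main analysis, where edgeR called 0.216% of all genes in CTRL and 0.318% in YT-iKO. Unadjusted p was under 0.05 for no member in CTRL, against 3.5% of all genes, and for Cavin3 alone in YT-iKO, against 3.01%. DESeq2 called no member in either, and limma-voom called 4 in CTRL and 3 in YT-iKO, all lower, where it called 24.2% and 18.1% of all genes. No member separated MCAo from sham by its libraries under the main scaling (4.14% of all genes in CTRL, 1.28% in YT-iKO). Under the other scaling Cavin2 (lower) and Cavin3 (higher) did so in CTRL (7.33%) and Cavin3 in YT-iKO (3.15%), while 1.83% and 1.75% of all genes were called. Mfsd2a differed by -0.48 ± 0.26 in CTRL and -0.43 ± 0.26 in YT-iKO (edgeR, adjusted p = 1 for both), with overlap in both.

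The response to MCAo was not shown to differ between genotypes for any member. edgeR called 0% of all genes for this difference under either scaling, DESeq2 and limma-voom called none either, and no member had an unadjusted p under 0.05 in the 3 tools, where 116 genes did in edgeR. The 95% confidence intervals remained wide, from -0.92 to 0.64 on the log2 scale for Cav1, from -0.50 to 0.85 for Cavin2 and from -0.80 to 2.43 for Plvap. The Plvap difference itself was 0.82 and turned to -0.79 ± 0.46 without CTRL sham replicate 4 (edgeR, adjusted p = 1).

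Across the 16 libraries on the scale of abundant genes, pairs of members are described by Pearson's r of log2(CPM + 1), without a test since libraries share their groups. Under the main scaling r was above 0 for all 36 pairs. Scaled by abundant genes, r was 0.878 for Cavin3 and Ehd4, 0.822 for Ehd2 and Ehd4, 0.774 for Cavin1 and Ehd2, and 0.721 both for Cavin3 and Ehd2 and for Cav1 and Ehd2. Within groups these were 0.842, 0.592, 0.579, 0.617 and 0.522, and Cavin1 and Cavin3 had 0.832 (0.615 over all). Mfsd2a and Cav2 had r = 0.846 (0.568 within groups), and Cav1 and Cav2 had r = 0.81 (0.919 within groups). Mfsd2a and Ehd4 had r = 0.0197 (0.211 within groups), and Mfsd2a and Cavin3 had r = -0.342 (-0.0136 within groups). Under the main scaling these last pairs had r = 0.501 and 0.232, so the sign of Mfsd2a with Cavin3 turned with the scaling.

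Among the 9114 other abundant genes, those most like Cav1 were Serinc5, Pcdh19 and Slc16a4 (r = 0.952, 0.943 and 0.941), and those most like Mfsd2a were Sema3c, Esyt2 and Abhd2 (0.948, 0.935 and 0.932). Cavin2 was nearest to Itih5, Edn3 and Lancl3 (0.916, 0.915 and 0.914), Cav2 to St8sia4 and Lmbrd1 (0.934 and 0.916) and Cavin1 to Nfe2l1, Adprh and Apoe (0.926, 0.901 and 0.9). Cavin3 was nearest to Rpl6, Eef1g and Pld3 (0.978, 0.965 and 0.962), Ehd2 to Arl6ip5, Serpinh1 and Serpinb9 (0.944, 0.943 and 0.92) and Ehd4 to Grn, Tgfbr2 and Hdgf (0.949, 0.948 and 0.937). Plvap was nearest to Exoc3l2, F2r and Dynll2 (0.925, 0.842 and 0.834). Exoc3l2 was also highest in the CTRL sham library described above, and the part of that library in these values was not tested.

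**Figure D4:**
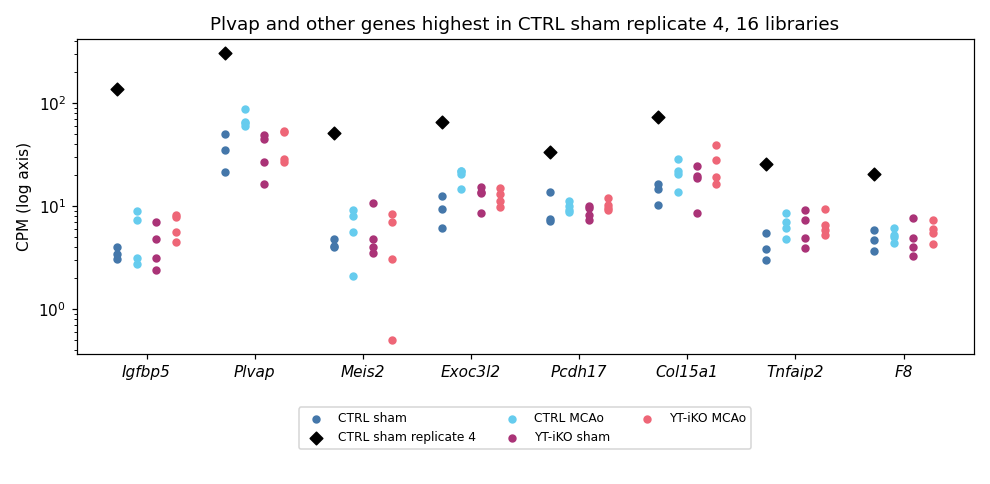
CPM on a log axis of Plvap and the other genes that stood furthest above all other libraries in CTRL sham replicate 4 (black diamonds), with the other 15 libraries as coloured points by group. Plvap is at 307 CPM there against 16.4 to 88.9 CPM elsewhere, and Igfbp5 at 137 against 2.41 to 9.02 CPM.

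Other genes of endocytosis and transcytosis were counted from lists. Averaged over surgery, none of 12 caveola partners, 14 clathrin coat and adaptor genes or 13 genes of endosomes and vesicle fusion was called between genotypes in the main analysis. Of 12 transcytosis receptors 1 was called, Tfrc, the transferrin receptor, lower in YT-iKO at -0.98 ± 0.21 (edgeR, adjusted p = 0.0556). Lepr, the leptin receptor, was next at -0.63 ± 0.15 (adjusted p = 0.104). The medians of the caveola partners, the clathrin list, the receptors, the endosome genes and 10 genes of lipid handling were -0.10, -0.18, -0.22, -0.14 and 0.02, with 8 of 12, 13 of 14, 10 of 12, 10 of 13 and 4 of 10 lower. The median was -0.47 for the 9 members, 0.09 for all genes and -0.06 for abundant genes. Scaled by abundant genes, where 1.79% of all genes were called, 3 of the clathrin list (Ap2b1, Picalm and Dab2), 3 receptors (Tfrc, Lepr and Lrp8), Rab7 and Acsl3 were called lower and Cavin4 and Lpl higher. Ap2b1, the beta subunit of the AP-2 adaptor, was at -0.43 ± 0.06 there (adjusted p = 0.000693).

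Of the genes of lipid handling, Lpl, which frees fatty acids from lipoproteins, was higher in YT-iKO by 1.29 ± 0.27 averaged over surgery (edgeR, adjusted p = 0.0503) and higher after MCAo by 1.04 ± 0.27 averaged over genotype (adjusted p = 0.081). Spns2, an exporter of sphingosine-1-phosphate, was higher after MCAo by 0.81 ± 0.21 (adjusted p = 0.0729). None of the other 4 lists had a call after MCAo in the main analysis, and none of the 5 had one there within a single surgery or genotype. With factors from abundant genes, Ap2b1, Picalm and Lepr were called lower in YT-iKO after sham (0.392% of all genes called). Src, Ap2b1, Tfrc and Lepr were called lower in YT-iKO after MCAo (0.582%). For MCAo against sham, Spns2 and Lpcat3 were called higher in CTRL (1.83%) and Lrp10, Scarb1, Vamp8 and Spns2 in YT-iKO (1.75%). Scaled by abundant genes, where 5.13% of all genes were called, the averaged calls after MCAo were 3 caveola partners (Ehd3 higher, Cavin4 and Dnm2 lower), 2 of the clathrin list, 4 receptors, 3 of endosomes and 5 of lipid handling. Of the caveola partners Ehd3, a further EHD ATPase, was higher by 0.50 ± 0.14 (adjusted p = 0.0552), and Dnm2, the dynamin that cuts vesicles free, lower at -0.24 ± 0.05 (adjusted p = 0.00948).

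The sorted cells could include other cells that make caveolae, and bulk RNA cannot tell fewer cells of a type from less RNA per cell. The 7 pericyte markers summed to 729 to 917 CPM in CTRL sham, 541 to 1462 in CTRL MCAo, 531 to 841 in YT-iKO sham and 478 to 1133 in YT-iKO MCAo, so they were present in every library. In YT-iKO averaged over surgery all 7 had lower means, with a median log2 fold change of -0.30, and none was called under either scaling. After MCAo 6 of 7 had higher means and none was called, or 3 (Pdgfrb, Kcnj8 and Abcc9, all higher) with factors from abundant genes. The 8 endothelial markers likewise all had lower means in YT-iKO, with a median of -0.20, and none was called, or Slco1a4 alone under the other scaling. Markers of smooth muscle summed to 38.5 to 101 CPM and those of fibroblasts to 12.9 to 29.5 CPM, and Lum of the fibroblast list was at 0 counts in CTRL sham replicate 4. None of either list was called between genotypes, and after MCAo averaged over genotype 1 of 5 was called higher in each, Des and Dcn.

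Markers of vessel segments were counted as well. Beside these and the counts of cell type markers, 0.28% of all genes were called for genotype averaged over surgery and 1.23% for MCAo averaged over genotype, or 1.79% and 5.13% with factors from abundant genes. Of the 4 capillary markers (Slc16a1, Tfrc, Car4 and Rgcc), 3 had lower means in YT-iKO averaged over surgery and 2 were called, or 3 with factors from abundant genes. They summed to 1655 to 2074 CPM in CTRL sham and 690 to 1304 CPM in YT-iKO sham. After MCAo they summed to 1055 to 1943 CPM in CTRL and 538 to 855 CPM in YT-iKO. All 6 venous markers (Nr2f2, Slc38a5, Vwf, Lcn2, Ephb4 and Ackr1) had higher means after MCAo averaged over genotype. Of these 3 were called, or all 6 with factors from abundant genes. They summed to 982 to 1830 CPM over the 8 sham libraries and 2329 to 7837 CPM over the 8 MCAo libraries. Vwf made up most of these sums, at 679 to 1392 CPM after sham and 1924 to 6965 CPM after MCAo. Over these libraries Vwf, Lcn2 and Ackr1 each separated MCAo from sham, whereas Nr2f2, Slc38a5 and Ephb4 overlapped. Between genotypes averaged over surgery 4 of 6 venous markers had higher means in YT-iKO, with a median of 0.19, and Slc38a5 alone was called, lower in YT-iKO at -1.38 ± 0.22 (edgeR, adjusted p = 0.00296). Of the 7 arterial markers, 5 had higher means in YT-iKO averaged over surgery and none was called, or Sema3g and Efnb2, both higher, with factors from abundant genes. After MCAo 6 of 7 were higher in YT-iKO, with sums of 356 to 811 CPM against 230 to 496 CPM in CTRL, and Sema3g and Gja4 were called with those factors. For MCAo against sham averaged over genotype, 6 of 7 arterial markers had higher means and Gja4 was called higher. Of 6 astrocyte markers 4 had higher means and Gfap alone was called, and all 4 capillary markers had lower means with Car4 called. The part of vessel segments, and that of pericytes and other cells, in the differences of the 9 genes was not tested.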

How the data were processed

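The authors sorted bECs, amplified RNA with a SMART-Seq kit, mapped paired-end reads with STAR 2.7.8a to GRCm38 with GENCODE M12 and deposited raw read counts per gene in 1 table. The counting program and its use of strand are not given in the sources used here. From the counts, edgeR 4.0.16 (R 4.3.3) fitted all 4 groups in 1 quasi-likelihood model with TMM factors after filterByExpr (minimum count 10, minimum total 15), with the Benjamini-Hochberg adjustment over 31085 genes and a threshold of 0.1. The 7 comparisons were genotype within each surgery, surgery within each genotype, their difference, and each averaged over the other. For single genes an exact permutation test, two-sided over 70 assignments, used log2(CPM + 1). Errors are SEs of fitted log2 fold changes unless named SD. Total counts per library set the counting precision, and p-values measure spread between pools.

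Alternatives were DESeq2 1.42.0, limma-voom with sample quality weights (limma 3.58.1), RLE factors, other filters and TMM factors from abundant genes. Further ones were a threshold of 0.05, fewer groups, a replicate block and each library left out. Methods were tested on simulated counts. The named genes were the 9 members, list genes called in any comparison (up to 3 per list by lowest adjusted p), Yap1, Wwtr1 and the 3 likest genes per member, of which 1 is not reported here. Beyond this rule, list genes and markers called only with factors from abundant genes, and ratios between members, were named after their values were seen. Other marker lists (choroid plexus epithelium, red cells, lymphocytes, neutrophils with monocytes, macrophages with microglia, oligodendrocytes, neurons, astrocytes and arterial endothelium) had no call between genotypes in the main analysis. The highest of their sums without the arterial list was 116 CPM. Astrocyte markers summed to 62.1 to 82.1 CPM in YT-iKO sham and 97.3 to 110 CPM in CTRL sham, and overlapped after MCAo. Of them Gja1 was called lower in YT-iKO averaged over surgery with factors from abundant genes (1.79% of all genes called). The members and lists were chosen with earlier results of these data known. Positions are from GENCODE M21 on GRCm38 and promoter sequence from RefSeq.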

Additional observations from a re-analysis of the deposited data

Results flagged for a closer look

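Of 36 sets of 4 libraries (9 genes in 4 groups), 3 held a library whose gap to its nearest neighbour was too large a share of the range of the 4 by Dixon's test at 95%; chance alone marks about 1 in 20 such sets. Plvap was at 307 CPM in CTRL sham replicate 4, and Igfbp5, Meis2, Exoc3l2, Pcdh17, Col15a1, Tnfaip2 and F8, chosen after their values were seen, were also higher there than in any of the other 15 libraries. Mfsd2a was at 87.2 CPM in YT-iKO MCAo replicate 2, the library with the highest TMM factor (1.40). Cavin1 was at 648 CPM in CTRL sham replicate 1, the lowest of that group. The part of library makeup in these values was not tested.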

How the results depend on the processing

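The number of the 9 genes called was 0 in the main analysis of each of the 7 comparisons. For genotype averaged over surgery it was 2 with RLE factors, DESeq2, no filter, the CPM filter or the replicate block (Cav1 and Cavin2 each time), 5 with limma-voom, 5 with factors from abundant genes, 7 with only abundant genes tested, 4 when CTRL sham replicate 4 was also left out on that scale, 6 with the replicate block on that scale and 3 with limma-voom on that scale. After sham it was 1 with DESeq2, limma-voom or abundant-gene factors, 3 with only abundant genes tested, 2 with only the groups compared in the fit, and 1, 3 and 2 under the 3 added settings in the order above. After MCAo it was 2, 2 and 4 with limma-voom, abundant-gene factors and only abundant genes, and 2, 2 and 1 under the added settings. MCAo against sham averaged over genotype gave 1 with DESeq2, 5 with limma-voom, 6 with abundant-gene factors or only abundant genes, and 5, 6 and 4 under the added settings; in CTRL 4 with limma-voom, 1 with only abundant genes and 1, 1 and 2 under the added settings; in YT-iKO 3 with limma-voom, 1 with abundant-gene factors, 3 with only abundant genes and 1 under each of the first 2 added settings. The added settings, and leaving out libraries on the scale of abundant genes, were chosen after seeing the data. Averaged over surgery, the share of all genes called was 0.396% with RLE factors, 1.33% with DESeq2, 0.341% without a filter, 0.627% with the CPM filter, 0.479% with the replicate block, 2.4% with limma-voom, 1.79% with abundant-gene factors and 12.2% with only abundant genes tested, against 0.28% in the main analysis; for MCAo averaged over genotype it was 54.7% with limma-voom and 24.1% with only abundant genes, against 1.23%. With only abundant genes tested it was 2.33% for genotype after sham, 4.22% after MCAo and 10.1% for MCAo in either genotype, and with only the groups compared 0.506% after sham. Under the 3 added settings it was 1.37%, 1.9% and 1.75% for genotype averaged, 0.249%, 0.37% and 0.856% after sham, 0.508%, 0.618% and 0.37% after MCAo, 4.51%, 5.4% and 4.86% for MCAo averaged, 1.47%, 1.95% and 4.25% in CTRL and 1.46%, 1.87% and 0.753% in YT-iKO. No member was called for the difference between genotypes in the response to MCAo under any of these. Leaving out 1 library gave 0 to 2 for genotype averaged over surgery, 0 to 1 for MCAo averaged over genotype and 0 to 0 in the others in the main analysis. With factors from abundant genes the ranges were 3 to 5 and 3 to 6, 0 to 2 for genotype after sham, 1 to 4 after MCAo, 0 to 1 for MCAo in CTRL and 0 to 3 in YT-iKO. The share of all genes called over those fits ran from 0.14% to 0.519% for genotype averaged and from 0.748% to 1.83% for MCAo averaged in the main analysis. With factors from abundant genes it ran from 1.13% to 1.84% and from 3.63% to 5.69% for these, from 0.182% to 0.4% for genotype after sham, from 0.277% to 0.73% after MCAo, from 0.762% to 2.13% for MCAo in CTRL and from 0.85% to 2.12% in YT-iKO.

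Directions between genotypes held for 7 of 9 genes under every alternative run. Plvap after sham turned to 0.10 with abundant-gene factors without CTRL sham replicate 4 (-1.93 to -0.06 over libraries left out in the main analysis), and Cavin3 after MCAo ran from -0.34 to 0.091. After MCAo averaged over genotype, Plvap turned to 0.078 with limma-voom, 0.15 with the replicate block, 0.62 with abundant-gene factors without CTRL sham replicate 4, 0.19 with the block on that scale and 0.27 with limma-voom on that scale (-0.36 to 0.58 over libraries left out). Cav1 ran from -0.14 to 0.045 and Cavin1 from -0.044 to 0.15 over libraries left out, and limma-voom turned Cavin1, Ehd2 and Ehd4 to -0.30, -0.11 and -0.035. Plvap after MCAo in CTRL turned to 0.34 with limma-voom, 1.08, 0.092 and 0.47 under the added settings (-0.90 to 0.97 over libraries left out), and in YT-iKO to -0.18 with limma-voom (-0.043 to 0.47). The cause was not tested. Same-numbered libraries correlated over 0.1 in 17 of 24 pairs (median r = 0.259, against -0.128 for 72 others), and numbers were not read as pairs because not every pair did and the labels tie no number to a shared animal, litter or day.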
